A study of Homo sapiens with 192 samples.

Results

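The growth responses of 2 human colorectal cancer (CRC) cell lines, HCT116 and HT29, were set against each other gene by gene. All libraries of these lines were used, which gave 12 of the 24 libraries of a series that also holds the CRC lines LS513 and LS174T. Each line was grown in 2D, as a cell layer, and in 3D, with 3 libraries per line and growth condition, and the labels name no treatment for any of the 4 groups. HCT116, a microsatellite instable line that is mutant for CTNNB1, was kept in McCoy medium, and HT29, a microsatellite stable line that is mutant for BRAF and APC, was kept in DMEM, so the line and its medium cannot be told apart. Each line stands for 1 tumor, how the 3D cultures for RNA were grown is not given in the sources used here, and the labels do not say whether the libraries of a group came from separate cultures, so p-values measure only the spread between these samples, which may be technical. Poly(A) RNA was sequenced, and the counts of the technical replicates of a library were summed per gene.

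Cells of a layer are stretched on a rigid surface, with an even supply of oxygen and nutrients. In a 3D mass the actin cytoskeleton carries less tension, cells touch neighbors on all sides, and oxygen and nutrients fall towards the core. The actin-regulated transcription factors YAP and SRF, the hypoxia-inducible factors, the SREBP factors of sterol synthesis and the stress factor ATF4 read such conditions and switch their target genes. Interferon-stimulated genes encode antiviral proteins and are driven by a complex that contains STAT2 and IRF9 and binds the interferon-stimulated response element. In the colon epithelium, Wnt signaling keeps the cells of the crypt base dividing, ATOH1 directs cells to the secretory fate, and CDX2 maintains intestinal identity. HCT116 is a poorly differentiated line, whereas HT29 can form absorptive and mucus-producing cells.

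The 12 library totals were between 18723942 and 34277421 counts with a median of 30417414, and 3 counts, taken as the limit of detection, corresponded to 0.0875 to 0.160 CPM, the count of a gene after division by the library size. Counting intervals and this limit cover counting error only. Library 1 of HCT116 in 3D stood apart in mitochondrial transcripts, which made up 6.4% of its counts against 1.14 to 2.85% in the other 11. All 7 epithelial markers tested were detected in each of the 4 groups. The summed level of 6 intestinal markers was 21.1 to 27.3 CPM in HCT116, where CDX1 and CDH17 did not pass 3 counts, against 524.8 to 551.0 CPM in HT29 in 2D and 1371.7 to 1510.6 CPM in HT29 in 3D. The summed level of 6 immune markers was 10.8 to 14.4 CPM in 2D and 36 to 47.5 CPM in 3D in HCT116, most of it from CD68, and 1250.6 to 1399.4 CPM in 2D and 2355.3 to 2596.6 CPM in 3D in HT29, nearly all of it from LYZ, lysozyme, which Paneth cells of the gut also make. CD14 and CD68 were at 4.65 to 7.1 CPM in 2D and 9.82 to 14.8 CPM in 3D in HT29, whereas PTPRC, a defining marker of leukocytes, had no more than 2 counts in any library and CD3E had none. The part of these markers in the results was not tested. With poly(A) counts from whole cultures, fewer cells with a transcript and less of it per cell cannot be told apart.

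The 3D response of a gene is its log2 fold change of 3D over 2D in 1 line, and the difference is the response of HCT116 minus that of HT29. Of 19387 genes tested, 1504 (7.76%) passed the edgeR quasi-likelihood test of the difference at an adjusted p under 0.05, and 3812 had an unadjusted p under 0.05. The change was larger, that is more positive, in HCT116 for 964 genes (4.97%) and in HT29 for 540 (2.79%). In HCT116 itself, 3253 genes (16.8%) rose and 2384 (12.3%) fell in 3D, while in HT29 4094 (21.1%) rose and 3793 (19.6%) fell. Both lines passed their own test in 3607 genes, of which 3408 moved the same way and 199 moved in opposite directions. The median difference over all genes was 0.00.

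The genes called in the difference were sorted by the test of each line. Opposite directions were found in 198 genes, 158 (0.815% of all genes tested) higher in 3D in HCT116 and lower in HT29, and 40 (0.206%) lower in HCT116 and higher in HT29. Only HCT116 passed its own test in 362 genes, 311 (1.6%) higher and 51 (0.263%) lower in 3D. Only HT29 passed its test in 730 genes, 371 (1.91%) higher and 359 (1.85%) lower. A further 201 genes (1.04%) moved the same way in both lines but by unequal amounts, and in 13 genes neither line passed. The opposite genes were thus mostly higher in HCT116, as were the genes with a response in HCT116 alone, whereas those with a response in HT29 alone were divided nearly evenly. With library totals in place of TMM scaling, the share of opposite genes that rose in HCT116 moved from 79.8% to 58.1%, that of HCT116-only genes that rose from 85.9% to 57.4%, and that of HT29-only genes that rose from 50.8% to 72.6%, with a shift of -0.11 in the median difference of all genes. The share of called genes with the larger change in HCT116 moved from 64.1% to 40.2% under that scaling, while no gene given with its values by library below changed sign under it. With TMM kept and 1 library left out, that share was 50.9% to 64.4%, and 51.8% to 64.8% of HT29-only genes rose. In the 12 libraries alone 62.1% of HT29-only genes rose, and with a replicate block 45.3%. The balance of directions thus rests on the scaling and on the libraries and model used.

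Some class sizes also moved by more than 1.5 times when 1 library was left out. The 158 genes that rose in HCT116 and fell in HT29 were 93 without library 2 of HCT116 in 3D, 96 without library 2 and 101 without library 1 of HT29 in 2D, and 105 without library 3 of HT29 in 3D. The 40 with the reverse pattern were 24 without library 2 of HCT116 in 2D. The 311 that rose in HCT116 alone were 201 without library 1 and 189 without library 2 of HCT116 in 3D, and the 359 that fell in HT29 alone were 218 without library 2 of HT29 in 2D, 219 without library 1 of HT29 in 3D, 224 without library 3 of HCT116 in 2D and 239 without library 2 of HCT116 in 3D. The same-direction genes went from 201 to between 112 and 133 without library 1 or 2 of HCT116 in 2D or in 3D, library 2 of HT29 in 2D or library 1 of HT29 in 3D. The 964 genes with the larger change in HCT116 were 596 without library 2 of HCT116 in 3D and 639 without library 2 of HT29 in 2D.

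**Figure D1:**
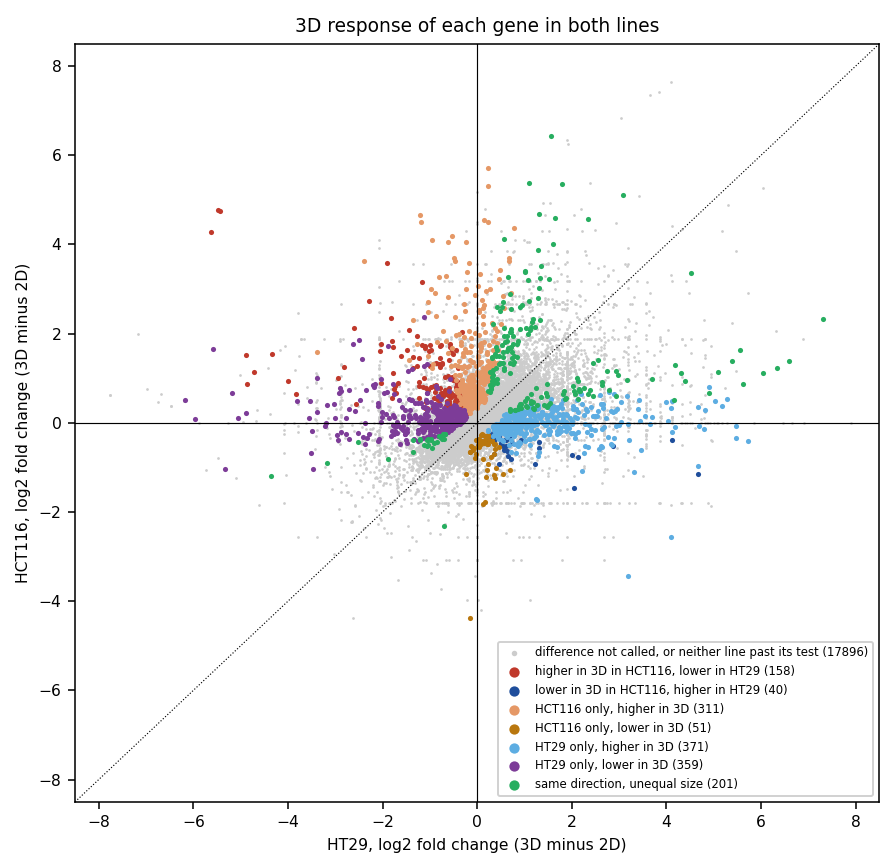
The 3D response of each of the 19387 genes tested in HT29 (horizontal axis, log2 fold change) and in HCT116 (vertical axis, log2 fold change), with colors for the classes and the number of genes of each in brackets. The 158 genes that rose in HCT116 and fell in HT29 fill the upper left, the 40 with the reverse pattern lie at the lower right, and the one-line genes lie along the axes; the dotted line marks equal responses.

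A line that misses its own test has not been shown to be unresponsive, so the interval of its change was examined. Of the 311 genes that rose in HCT116 alone, 278 had an HT29 change within 0.5 of 0 on the log2 scale, and in 153 the whole 95% interval lay within 0.5 of 0. Among the 371 genes that rose in HT29 alone, the HCT116 change was within 0.5 of 0 in 337 and its interval in 170. For the 359 that fell in HT29 alone these counts were 316 and 199, and for the 51 that fell in HCT116 alone they were 49 and 29. Being past the test in 1 line is also a weak guide to a difference: only 17.8% of the 2030 genes that passed in HCT116 but not in HT29 were called in the difference, and 17.1% of the 4280 that passed in HT29 but not in HCT116.

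Among the genes that rose in HCT116 and fell in HT29, the median response was 0.74 in HCT116 and -0.67 in HT29, and the difference ranged from 0.43 to 10.25. In 133 of the 158, the 2D and 3D libraries did not overlap in either line. CPM on the TMM scale are given for libraries 1, 2 and 3 of each group in that order, and for HT29 in 3D for libraries 1, 3 and 4.

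MMP7 (ENSG00000137673, chr11:102520508-102530753 of GRCh38, minus strand) encodes matrilysin, a secreted protease of epithelial cells. In HCT116 it was at 3.17, 2.88 and 3.5 CPM in 2D and at 19.5, 15.6 and 13.8 CPM in 3D. In HT29 it was at 23.6, 45.9 and 32.7 CPM in 2D and at 7.45, 7.64 and 13.8 CPM in 3D. All HCT116 libraries were higher in 3D than any in 2D, all HT29 libraries were lower, and neither line had an overlap. The response was 2.36 ± 0.26 (SE) in HCT116 and -1.82 ± 0.25 in HT29, which gave a difference of 4.18 ± 0.36 (adjusted p = 1.4e-07). HT29 was the higher line in 2D in every library, and in 3D the highest HT29 library and the lowest HCT116 library were both at 13.8 CPM.

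PLAT encodes tissue-type plasminogen activator, a secreted protease that starts fibrinolysis. Its level was 10.9, 11.2 and 10 CPM in 2D and 17.8, 22.5 and 18.5 CPM in 3D in HCT116, and 2.47, 1.62 and 1.04 CPM in 2D and 0.0302, 0.0346 and 0.109 CPM in 3D in HT29. Every HCT116 library rose above the 2D range, and the HT29 libraries in 3D were at or below the floor. The HT29 counts were 138 over the 2D libraries and 5 over the 3D libraries, a ratio of 31.9 (95% counting interval 13.4 to 99.9). The urokinase gene PLAU, the other plasminogen activator, was at 70.6, 66.8 and 68.8 CPM in 2D and 109.5, 93.4 and 74.4 CPM in 3D in HCT116, and at 4.32, 5.33 and 2.74 CPM in 2D and 0.633, 1.0 and 0.508 CPM in 3D in HT29. Both activators thus rose in HCT116, without overlap, and fell in HT29, where the PLAU response was -2.55 ± 0.22 against 0.43 ± 0.14 in HCT116. PLAU shares 31.1% of its exonic length with a gene on the opposite strand.

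ZBED2 (ENSG00000177494, chr3:111592900-111595443, minus strand), a zinc finger protein of the BED type, was at 5.04, 4.14 and 5.04 CPM in 2D and 8.31, 9.57 and 13.2 CPM in 3D in HCT116. In HT29 it was at 0.857, 0.688 and 0.493 CPM in 2D, and in 3D at 0, 0 and 0.0726 CPM. All HCT116 libraries were thus higher in 3D and all HT29 libraries lower, the latter from 54 counts to 2, a ratio of 31.2 with a counting interval of 8.24 to 264. AKAP12 (chr6:151239999-151358557, plus strand), a scaffold that anchors protein kinase A at the cell membrane, was at 1241, 920.4 and 787 CPM in 2D and 2285, 2581 and 2139.5 CPM in 3D in HCT116, and at 55.1, 89.0 and 51.6 CPM in 2D and 7.81, 8.02 and 12.2 CPM in 3D in HT29. The lines moved apart without overlap in either, with a difference of 4.06 ± 0.33 (adjusted p = 5.9e-08).

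LOXL4 (chr10:98247690-98268250, minus strand), a lysyl oxidase that cross-links collagen, moved the other way in level, towards a smaller gap between the lines. It was at 0.544, 0.575 and 0.93 CPM in 2D and 2.96, 3.3 and 2.41 CPM in 3D in HCT116, and at 262, 269.6 and 169.6 CPM in 2D and 100.2, 81.8 and 78.2 CPM in 3D in HT29. Neither line had an overlap, and HT29 stayed the higher line in every library. AHNAK2 (chr14:104937244-104978357, minus strand), a giant scaffold protein, was at 8.22, 9.86 and 7.92 CPM in 2D and 34.7, 29.9 and 20.1 CPM in 3D in HCT116, against 20.2, 34.4 and 16.6 CPM in 2D and 6.09, 7.19 and 7.47 CPM in 3D in HT29. Its order between the lines reversed with growth, since every HT29 library was the higher in 2D and every HCT116 library in 3D.

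The 40 genes that fell in HCT116 and rose in HT29 moved less, with a median response of -0.42 in HCT116 and 0.55 in HT29, and 34 of them had no overlap in either line. CA2, the cytosolic carbonic anhydrase of absorptive colonocytes, was at 84.9, 86.5 and 84.4 CPM in 2D and 45.2, 47.3 and 58.8 CPM in 3D in HCT116, and at 2.06, 1.69 and 1.81 CPM in 2D and 8.11, 7.54 and 8.85 CPM in 3D in HT29. All 3D libraries were lower than all 2D libraries in HCT116 and higher in HT29, with responses of -0.76 ± 0.15 and 2.14 ± 0.20 and a difference of -2.89 ± 0.25 (adjusted p = 1.5e-07). The deubiquitinase-like gene OTULINL (chr5:14581775-14615007, plus strand) was at 9.24, 9.26 and 10.2 CPM in 2D and 7.45, 6.11 and 5.78 CPM in 3D in HCT116, and at 7.75, 5.26 and 9.75 CPM in 2D and 22.6, 14.7 and 18.2 CPM in 3D in HT29. It did not overlap within either line, and the lines, which overlapped in 2D, were apart in 3D.

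C1orf21 (chr1:184387058-184629020, plus strand) was at 8.58, 9.14 and 8.86 CPM in 2D and 6.02, 6.57 and 7.62 CPM in 3D in HCT116, and at 30.9, 25.9 and 29.9 CPM in 2D and 52.7, 60 and 52.3 CPM in 3D in HT29. FAM13A (chr4:88725955-89111398, minus strand), which has a RhoGAP domain, was at 25.8, 26.3 and 22.2 CPM in 2D and 17.5, 18.8 and 18.4 CPM in 3D in HCT116, and at 13.6, 13.5 and 15.0 CPM in 2D and 25, 20.4 and 24.9 CPM in 3D in HT29. In both genes all HCT116 libraries fell and all HT29 libraries rose, and FAM13A changed from higher in HCT116 to higher in HT29. LIPE, the hormone-sensitive lipase, named under a minimum of 1 CPM in each responding line that was chosen after seeing the data, had responses of -0.52 ± 0.14 and 0.61 ± 0.13.

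The 2 genes with the most negative differences of this class were near 0 in HT29, and no fitted fold change is given for them there. The transporter gene SLC16A9 (chr10:59650761-59736002, minus strand) was at 14.3, 16.6 and 12.6 CPM in 2D and 6.18, 6.53 and 6.99 CPM in 3D in HCT116, a clear fall, while in HT29 it had 0 counts over the 2D libraries and 9 over the 3D libraries, at least 2.59-fold higher against a floor of 3 counts over the group. Without library 1 of HT29 in 3D its difference was no longer called (adjusted p = 0.054). AP000781.2 went from 0 to 6 counts in HT29, and it shares 95.5% of its exonic length with genes of the same strand. Its difference was lost without any of 6 libraries in turn, with adjusted p-values of up to 0.13.

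**Figure D2:**
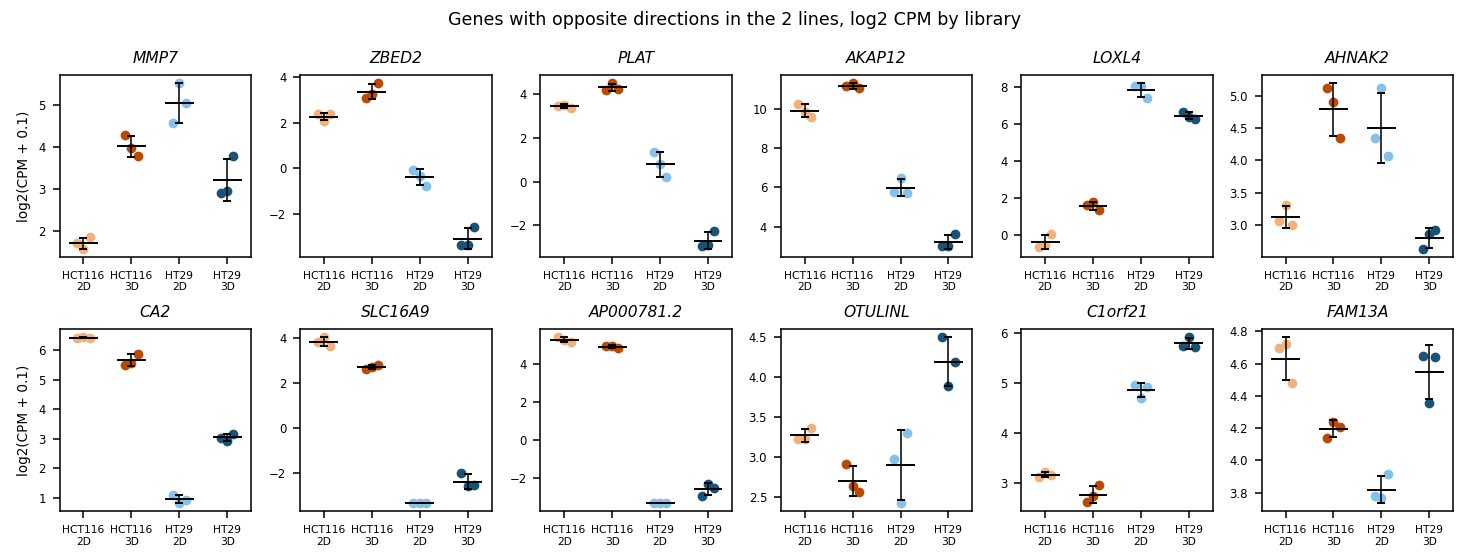
Levels of the 6 genes with the largest difference in each opposite class, as log2(CPM + 0.1) on the vertical axis for each group on the horizontal axis; points are libraries, the horizontal line is the mean and the bar the SD of 3 libraries. In the upper panels HCT116 rose and HT29 fell, as for AKAP12 from 1241, 920.4 and 787 CPM to 2285, 2581 and 2139.5 CPM in HCT116, and in the lower panels the reverse, with SLC16A9 and AP000781.2 at 0 counts in HT29 in 2D.

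The 311 genes that rose in 3D in HCT116 alone had a median response of 0.96 in HCT116 and -0.10 in HT29. In 300 of them the HCT116 libraries did not overlap. HT29 in 2D was already above HCT116 in 2D for 74.9% of these genes, against 46.7% of all genes tested, and the lines were closer in 3D than in 2D for 64.3%, against 48.5% of all genes. These levels come from the libraries that set the classes and are a description.

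BST2 (ENSG00000130303, chr19:17402939-17405648, minus strand), the interferon-induced protein tetherin that holds budding viruses at the cell surface, showed this most clearly. It was at 0.544, 0.201 and 0.449 CPM in 2D and 22.9, 15.3 and 9.69 CPM in 3D in HCT116, and at 76.3, 69.9 and 77.8 CPM in 2D and 90.0, 79.1 and 93.1 CPM in 3D in HT29. HCT116 rose from near the floor, by 5.32 ± 0.31, yet stayed below every HT29 library, while the HT29 change was 0.23 (95% interval -0.19 to 0.64). TM4SF1, a membrane protein of the tetraspan type, had 2 counts over the 2D libraries and 51 over the 3D libraries of HCT116, a ratio of 25.9 (counting interval 6.82 to 220), against 374 to 474 CPM in HT29. KRT13 (chr17:41500981-41505705, minus strand), a keratin of stratified epithelia, was at 0.362, 0.345 and 0.481 CPM in 2D and 5.55, 6.34 and 2.94 CPM in 3D in HCT116. In HT29 KRT13 was at 223, 299 and 171 CPM in 2D and 160.3, 178 and 165 CPM in 3D, with overlap, and a change of -0.46 (95% interval -0.93 to -0.00).

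GALNT5 (chr2:157257598-157314211, plus strand), which starts O-linked glycosylation of mucin-type proteins, differed in that HCT116 was the higher line. It was at 6.16, 4.37 and 3.56 CPM in 2D and 31.8, 32.9 and 42.3 CPM in 3D in HCT116, and at 0.446, 0.998 and 0.493 CPM in 2D and 0.302, 0.104 and 0.689 CPM in 3D in HT29. The HCT116 libraries were far apart and the HT29 libraries overlapped, but the HT29 interval of -1.93 to 0.17 is wide at these levels.

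The 51 genes that fell in HCT116 alone had small changes, with a median of -0.51 in HCT116 and 0.14 in HT29, and their number moved with single libraries. It was 27, 22 and 84 without library 1, 2 or 3 of HCT116 in 2D, 31 and 135 without library 2 or 3 of HCT116 in 3D, and 83 without library 3 of HT29 in 3D. MYB (chr6:135181315-135219173, plus strand), a transcription factor of crypt progenitors, was at 8.43, 8.66 and 8.28 CPM in 2D and 4.52, 4.31 and 4.51 CPM in 3D in HCT116, against 23.5, 19.7 and 24 CPM in 2D and 31.7, 18.5 and 28.9 CPM in 3D in HT29. The HCT116 libraries fell within a narrow range, by 0.93 ± 0.19 on the log2 scale, and the HT29 libraries overlapped. The calcium channel subunit gene CACNA1D fell by 1.18 ± 0.32 in HCT116, from 0.695, 0.891 and 1.22 CPM to 0.233, 0.457 and 0.535 CPM, and MOB3B by 0.70 ± 0.18, from 7.31, 8.28 and 6.42 CPM to 3.76, 4.08 and 5.75 CPM. MNS1, a protein of cilia and flagella, fell by 1.05 ± 0.29, but its difference was lost without library 3 of HCT116 in 2D (adjusted p = 0.07), library 2 in 3D (0.061) or library 3 in 3D (0.058). The receptor kinase gene GRK3, named under the added minimum, fell by 0.76 ± 0.16. With a replicate block in the fit, the differences of MYB (adjusted p = 0.079), CACNA1D (0.051), MOB3B (0.19), MNS1 (0.16) and GRK3 (0.15) were no longer called.

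The 371 genes that rose in HT29 alone had the largest median change of the one-line classes, 1.17 in HT29 against -0.01 in HCT116. HT29 in 2D was below HCT116 in 2D for most of them, since it was the higher line in only 30.2%, against 46.7% of all genes tested. These levels also come from the libraries that set the class and are a description. NXPH4 (chr12:57216795-57226449, plus strand), a secreted ligand of neurexins, was at 0.309, 0.31 and 0.493 CPM in 2D and 14.6, 5.64 and 9.54 CPM in 3D in HT29, and at 11.4, 11 and 17.2 CPM in 2D and 11.9, 11.7 and 12.5 CPM in 3D in HCT116. In 3D, library 1 of HT29 was above the HCT116 libraries and the other two were below them, and HCT116 overlapped between growth conditions. NEURL1 (chr10:103493979-103592552, plus strand), a ubiquitin ligase of the Notch pathway, was at 0.0343, 0.344 and 0.219 CPM in 2D and 7.99, 5.12 and 6.38 CPM in 3D in HT29, against 1.9 to 3.02 CPM in 2D and 2.93 to 3.61 CPM in 3D in HCT116. HT29 was thus the lower line in 2D and the higher in 3D in every library.

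ATOH1, the transcription factor of the secretory lineage, was at 0.274, 0.378 and 0.274 CPM in 2D and 5.88, 4.7 and 6.6 CPM in 3D in HT29. In HCT116 it was at 0.0669 to 0.193 CPM in all 6 libraries, at about the floor, where its interval of -1.19 to 1.00 leaves the change undetermined. RASD2, a small GTPase named under the added minimum, went from 4 to 129 counts in HT29, a ratio of 27.9 (counting interval 10.6 to 104). The lysophosphatidic acid receptor gene LPAR1 went from 0 to 16 counts in HT29, at least 4.61-fold higher, and the neurotrophin receptor gene NGFR from 0 to 13, at least 3.75-fold higher, both far below HCT116, where LPAR1 was at 16.8 to 20 CPM and NGFR at 5.47 to 9.44 CPM. The NGFR call was lost without library 1 (adjusted p = 0.058) or library 2 (0.064) of HT29 in 2D.

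Among the 359 genes that fell in HT29 alone the median response was -0.85 in HT29 and 0.09 in HCT116. The cytoskeletal gene PHLDB2 (chr3:111732497-111976517, plus strand), whose protein anchors microtubules near focal adhesions, was at 27.4, 23.8 and 23.2 CPM in 2D and 0.151, 0.346 and 0.726 CPM in 3D in HT29, and at 106, 95.6 and 86.2 CPM in 2D and 91.8, 108 and 104 CPM in 3D in HCT116. HT29 fell by 5.97 ± 0.32, and the HCT116 libraries overlapped with a change of 0.08 (95% interval -0.33 to 0.48). The matrix gene TNC (tenascin C, chr9:115019578-115118257, minus strand) was at 16.0, 43.0 and 20.7 CPM in 2D and 0.754, 0.553 and 0.653 CPM in 3D in HT29. The matrix gene FN1 (fibronectin, chr2:215360440-215436172, minus strand) was at 1.82, 0.585 and 1.21 CPM in 2D and 0.0603, 0.138 and 0.29 CPM in 3D in HT29.

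These matrix genes differed in HCT116. FN1 was at 19.0, 17.8 and 18.9 CPM in 2D and 28.4, 35.9 and 31.3 CPM in 3D there, with no overlap but an adjusted p of 0.065, and TNC was at 0.423, 0.489 and 0.802 CPM in 2D and 0.299, 0.327 and 0.201 CPM in 3D, also with no overlap and an adjusted p of 0.14. FN1 was thus the higher in HCT116 in every library. TNC was the higher in HT29 in both growth conditions, by far less in 3D. ELFN2 (chr22:37367960-37427470, minus strand), a membrane protein of neurons, was at 3.09, 6.12 and 2.68 CPM in 2D and 0.271, 0.311 and 0.472 CPM in 3D in HT29, against 73.4 to 78.5 CPM in 2D and 96.6 to 116 CPM in 3D in HCT116.

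**Figure D3:**
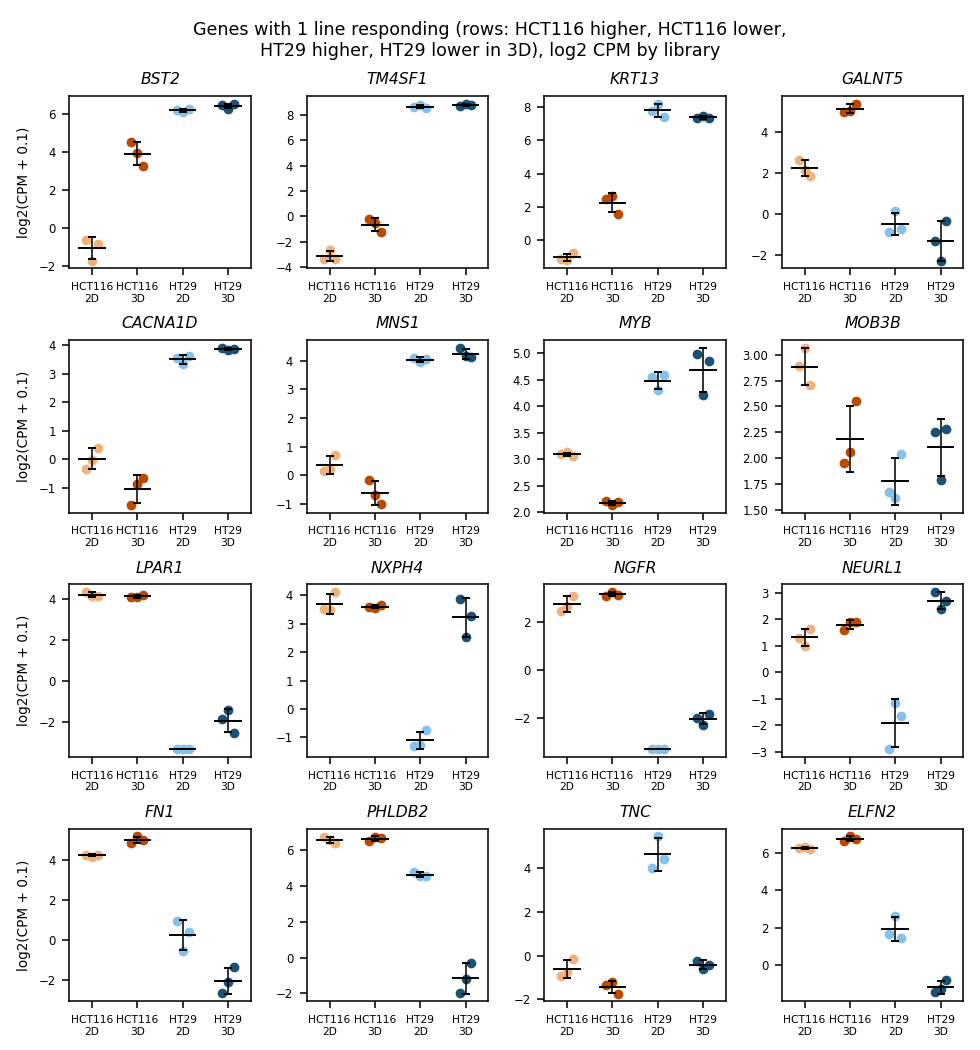
Levels of the 4 genes with the largest difference in each one-line class, as log2(CPM + 0.1) on the vertical axis for each group on the horizontal axis; points are libraries, the horizontal line is the mean and the bar the SD of 3 libraries. From top to bottom, genes that rose in HCT116, fell in HCT116, rose in HT29 and fell in HT29; BST2 in HCT116 climbed from 0.544, 0.201 and 0.449 CPM to 22.9, 15.3 and 9.69 CPM towards a steady HT29 level.

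Genes of 16 pathways and cell states were then counted, with the 7.76% of all genes called as the background. In the interferon list, 38 of 75 genes tested were called in the difference, 37 with the larger change in HCT116 and 1 with the larger change in HT29, and the median difference was 1.05. In HCT116 71 of the 75 rose and none fell, while in HT29 49 rose and 6 fell. The count was 33 without library 1 of HCT116 in 3D and 33 to 43 over all settings tried.

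Called members were found in each part of the list, though in unequal shares, with 1 of 4 guanylate-binding protein genes called. Of the transcription factors and JAK-STAT kinases 5 of 7 were called, among them IRF7 at a difference of 2.94, IRF9 at 2.64, STAT2 at 0.84 and IRF1 at 0.71. Of these, IRF9 rose in both lines, and IRF7, STAT2 and IRF1 were past the test in HCT116 alone. The RNA sensors were called in 3 of 5, DDX58 (RIG-I) with 2.19, IFIH1 (MDA5) with 1.5 and the kinase EIF2AK2 with 1.34. EIF2AK2 was one of 4 members with opposite directions, beside SAMD9, IFIT5 and TRIM25. The 46 effectors had 25 called, and of 13 antigen presentation genes 4 were called, HLA-F, B2M and TAP2 among them, all with the larger change in HCT116. The single member with the larger change in HT29 was the ISG15-conjugating enzyme UBE2L6, at 0.0663 CPM in 2D and 1.0 CPM in 3D in HT29 on average against 26.6 and 65.6 CPM in HCT116. These members and those of the lists below that are given by their differences or group means were chosen after their values were seen.

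OAS1, which makes the messenger that activates RNase L, shows a response that was large in HCT116 and smaller in HT29. It was at 1.03, 0.949 and 1.25 CPM in 2D and 53.7, 48.9 and 30.0 CPM in 3D in HCT116, and at 22.6, 15.2 and 22.0 CPM in 2D and 66.8, 66.7 and 73.9 CPM in 3D in HT29. Both lines rose without overlap, HCT116 by 5.36 ± 0.25 and HT29 by 1.80 ± 0.19, to levels that were still higher in HT29. IFI44 rose in HCT116 from 0.634, 0.518 and 1.03 CPM to 21.8, 14.9 and 8.49 CPM, with a difference of 3.59 ± 0.47. In HT29 it was at 1.41, 1.2 and 1.7 CPM in 2D and 3.2, 1.87 and 2.25 CPM in 3D, also without overlap, a response of 0.79 (95% interval 0.10 to 1.47) that missed the test (adjusted p = 0.062). The GTPase gene GBP2 had 3 counts over the 2D and 270 over the 3D libraries of HCT116, a ratio of 91.5 (counting interval 31 to 446), and rose by 1.56 ± 0.27 in HT29.

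SAMD9 (chr7:93099513-93118023, minus strand), an antiviral protein that blocks translation, had opposite directions. It was at 12.9, 15.0 and 9.21 CPM in 2D and 43.8, 45.1 and 33.8 CPM in 3D in HCT116, and at 52.5, 68.9 and 47.1 CPM in 2D and 26.8, 21.8 and 30.1 CPM in 3D in HT29. Neither line overlapped, HT29 was the higher line in 2D and HCT116 in 3D, and the difference was 2.82 ± 0.28 (adjusted p = 3.7e-07). In HCT116 in 3D, the mean level of the list, log2(CPM + 1), was 5.34, 5.2 and 4.75 in libraries 1, 2 and 3, in the same order as their mitochondrial share of 6.4, 2.45 and 1.66%, and the part of that share in the result was not tested.

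Promoters of 4 of these genes are shown because the element that the interferon complex binds is part of the pathway, 3 with its core and 1 without. The windows are from RefSeq on GRCh38.p14, run from 250 bases before to 50 after the start, and are written on the strand of the gene, with matches to the core of the interferon-stimulated response element, GAAANNGAA on either strand, in capitals. BST2 is at chr19:17405581-17405880, minus strand, and holds 2 cores that overlap. IFI44 is at chr1:78649539-78649838, plus strand, SAMD9 at chr7:93117930-93118229, minus strand, and OAS1 at chr12:112906712-112907011, plus strand, with no match. Only this pattern and spacing were searched, so a window with no match may still hold a variant of the element.
BST2: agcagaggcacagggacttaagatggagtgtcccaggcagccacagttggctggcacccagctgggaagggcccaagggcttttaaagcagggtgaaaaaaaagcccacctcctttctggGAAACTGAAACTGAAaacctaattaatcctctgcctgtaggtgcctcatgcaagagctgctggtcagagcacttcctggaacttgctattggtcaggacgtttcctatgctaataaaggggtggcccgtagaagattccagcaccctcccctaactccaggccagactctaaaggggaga
IFI44: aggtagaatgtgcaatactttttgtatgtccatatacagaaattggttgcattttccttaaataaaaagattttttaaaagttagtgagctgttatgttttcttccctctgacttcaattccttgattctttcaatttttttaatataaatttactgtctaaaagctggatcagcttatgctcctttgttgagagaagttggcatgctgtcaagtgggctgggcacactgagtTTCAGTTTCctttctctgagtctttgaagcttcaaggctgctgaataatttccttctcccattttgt
SAMD9: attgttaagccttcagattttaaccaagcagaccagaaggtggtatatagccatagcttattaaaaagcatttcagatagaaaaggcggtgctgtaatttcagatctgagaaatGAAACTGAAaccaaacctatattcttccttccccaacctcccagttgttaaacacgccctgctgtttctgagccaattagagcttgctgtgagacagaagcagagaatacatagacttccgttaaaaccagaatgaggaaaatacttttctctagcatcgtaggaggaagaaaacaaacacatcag
OAS1: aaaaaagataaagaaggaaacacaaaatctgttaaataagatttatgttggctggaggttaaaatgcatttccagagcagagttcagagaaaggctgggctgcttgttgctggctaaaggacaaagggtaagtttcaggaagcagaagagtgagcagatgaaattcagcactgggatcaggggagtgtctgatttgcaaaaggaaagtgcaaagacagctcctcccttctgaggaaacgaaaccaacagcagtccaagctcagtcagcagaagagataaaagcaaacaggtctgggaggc
The core was in a window of 8.68% of the 11933 tested genes with one, and in 69.5% of the 59 interferon genes with one. Within the list it was in 73.3% of the 30 genes called in the difference and in 65.5% of the 29 not called. SAMD9, which fell in HT29, and BST2, which was past the test in HCT116 alone, both hold it. Among the classes the share was 13.5% for genes that rose in HCT116 alone, 9.71% for those that rose in HCT116 and fell in HT29 and 19.2% for the same-direction genes.

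In the list of NF-kB and inflammatory genes 2 of 34 were called. IL18, an epithelial cytokine, was at 21.6, 22.3 and 21.1 CPM in 2D and 64.8, 59.5 and 54.1 CPM in 3D in HCT116, and at 7.82, 9.29 and 8.11 CPM in 2D and 4.04, 3.49 and 3.26 CPM in 3D in HT29. It thus moved in opposite directions without overlap, with a difference of 2.68 ± 0.20. The apoptosis inhibitor BIRC3 was past the test in HCT116 alone, where it rose by 1.28 ± 0.22, while its HT29 change was -0.56 (95% interval -1.04 to -0.07, adjusted p = 0.062).

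Targets of YAP and SRF, which report tension on the actin cytoskeleton, had 13 of 31 members called, all with the larger change in HCT116. In HT29 18 of the 31 fell and 2 rose, whereas in HCT116 7 rose and 1 fell, and the median difference was 0.48. NT5E, F3, TPM4 and ACTG1 had opposite directions, and the other 9 fell in HT29 alone. FLNA (chrX:154348524-154374638, minus strand), the actin cross-linker filamin A, was at 2452, 3215 and 2467 CPM in 2D and 279.7, 255 and 336 CPM in 3D in HT29, and at 977, 857 and 808 CPM in 2D and 718, 932 and 864 CPM in 3D in HCT116. HT29 went from clearly above HCT116 to clearly below it, with a change of -3.22 ± 0.17, and the HCT116 libraries overlapped with a change of -0.07 (95% interval -0.39 to 0.24). The receptor kinase gene AXL was at 10.6, 16.4 and 9.48 CPM in 2D and 1.45, 0.934 and 1.63 CPM in 3D in HT29, and between 33.3 and 40 CPM in all 6 HCT116 libraries. The myosin light chain gene MYL9 went from 1.37, 1.07 and 2.57 CPM to 0.271, 0.138 and 0.181 CPM in HT29, and was between 30.2 and 51.4 CPM in HCT116.

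Genes of the epithelial and mesenchymal state were called in 8 of 29, all with the larger change in HCT116. The epithelial members were the claudin genes CLDN4, with a difference of 1.33, and CLDN3, with 1.11, which rose in both lines. The 6 called of 16 tested on the mesenchymal side of the list were MMP7, a protease of epithelial cells, FN1, PLAU, TGFBI, VIM and PLAUR. TGFBI, a matrix protein induced by TGF-beta, was at 28, 41.8 and 32.0 CPM in 2D and 9.2, 5.81 and 7.18 CPM in 3D in HT29, a fall without overlap of 2.19 ± 0.14, and at 0.173 to 0.499 CPM in HCT116. The urokinase receptor gene PLAUR rose in HCT116 alone, by 2.03 against 0.18 in HT29. In HCT116 both claudin genes thus rose, and so did MMP7, PLAU, VIM and PLAUR from the mesenchymal side of the list.

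Of 51 hypoxia genes, 39 rose in HCT116 and 30 in HT29, 14 had the larger change in HCT116 and P4HA2 alone the larger in HT29. The called members were 7 of 20 genes of glucose use, 3 of 11 regulators, 1 of 4 mitochondrial genes and 4 of 9 others, and the count was 11 to 16 when 1 library was left out. SLC2A1, the glucose transporter GLUT1, was at 96.1, 86.0 and 87.6 CPM in 2D and 244, 245 and 188 CPM in 3D in HCT116, and at 846, 925 and 774 CPM in 2D and 999, 745 and 860.5 CPM in 3D in HT29. HCT116 rose without overlap by 1.33 ± 0.12 yet stayed below HT29, whose libraries overlapped with a change of 0.03 (95% interval -0.21 to 0.28). The collagen prolyl hydroxylase gene P4HA2 was at 29.2, 30.0 and 31.2 CPM in 2D and 46.4, 50 and 45.9 CPM in 3D in HCT116, and at 49.3, 52.9 and 40.8 CPM in 2D and 216, 118 and 174 CPM in 3D in HT29. Both lines rose, HT29 by 1.83 ± 0.16 and HCT116 by 0.66 ± 0.15, while its relative P4HA1 had the larger rise in HCT116, 2.15 against 1.13.

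DDIT4, an inhibitor of mTOR that hypoxia and amino acid stress induce, was at 27.5, 34.1 and 39.3 CPM in 2D and 302, 249 and 196 CPM in 3D in HCT116, and at 59.0, 36.6 and 66.7 CPM in 2D and 108, 60.5 and 94.4 CPM in 3D in HT29. HCT116 rose by 2.89 ± 0.27 with no overlap, and HT29 by 0.70 ± 0.25 with overlap. It shares 41.2% of its exonic length with an antisense gene. The transcription repressor gene BHLHE40 had a difference of 1.71 ± 0.51 that was lost without any of 9 libraries in turn, with adjusted p-values of up to 0.13. The core of the hypoxia response element, ACGTG on either strand, was in a window of 65.2% of 46 hypoxia genes against 31.4% of all tested genes with one, and in 31.2% of the genes that rose in HCT116 alone. The DDIT4 window, chr10:72273674-72273973, plus strand, holds it once, in capitals, that of BHLHE40 holds it 4 times, and those of SLC2A1 and P4HA2 hold none.
DDIT4: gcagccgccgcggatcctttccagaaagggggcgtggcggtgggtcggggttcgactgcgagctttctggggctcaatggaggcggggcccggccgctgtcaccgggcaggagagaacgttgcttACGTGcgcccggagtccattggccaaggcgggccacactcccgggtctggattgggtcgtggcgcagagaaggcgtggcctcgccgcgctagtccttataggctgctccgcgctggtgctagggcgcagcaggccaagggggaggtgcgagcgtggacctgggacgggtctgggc

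Sterol and fatty acid synthesis had 7 of 35 members called. The count was 4 without library 3 of HCT116 in 2D, 3 without library 2 of HCT116 in 3D and 2 with a replicate block. The sterol enzymes MSMO1 and FDFT1 and the regulator SREBF2 were among the 5 with the larger change in HCT116, and SREBF1 was among the 2 with the larger in HT29. MSMO1 was at 40.4, 45.4 and 32.0 CPM in 2D and 76.8, 71.5 and 72.7 CPM in 3D in HCT116, and at 55.8, 64.2 and 69.4 CPM in 2D and 63.4, 46.3 and 59.8 CPM in 3D in HT29. It rose without overlap in HCT116, and the HT29 libraries overlapped. The 2 SREBP genes had differences of opposite sign, 0.74 ± 0.16 for SREBF2, the regulator of sterol synthesis, and -0.71 ± 0.16 for SREBF1, the regulator of fatty acid synthesis, though both rose in both lines. The SREBF2 call was lost without library 2 of HCT116 in 3D (adjusted p = 0.055), and the SREBF1 call with a replicate block (0.17).

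In the list of ATF4 targets and amino acid stress 11 of 34 were called, 10 with the larger change in HCT116, and 7 were called without library 3 of HCT116 in 2D. In HT29 15 members fell and 6 rose, and in HCT116 8 rose and 4 fell. The asparagine synthetase gene ASNS was at 149, 99.9 and 133 CPM in 2D and 67.1, 69.9 and 78.2 CPM in 3D in HT29, and at 59.5, 73.8 and 84.4 CPM in 2D and 91.8, 86.6 and 76.0 CPM in 3D in HCT116. HT29 fell without overlap and HCT116 overlapped, and 44.6% of the exonic length is shared with a gene of the same strand. SLC7A11, the cystine transporter, fell in HT29 from 118, 88.1 and 148 CPM to 32.9, 63.9 and 64.6 CPM. Its difference was lost without library 3 of HCT116 in 2D (adjusted p = 0.057) or library 3 of HT29 in 2D (0.065), and in a fit of the 12 libraries alone (0.091). CHAC1, which degrades glutathione, rose in HCT116 alone by 1.24 ± 0.28, and this difference was lost without library 1 of HCT116 in 3D (adjusted p = 0.056). The member with the larger change in HT29 was NUPR1, at 0.0959 CPM in 2D and 2.13 CPM in 3D on average.

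Of 34 genes of growth arrest, DNA repair and cell death 6 were called, 4 with the larger change in HT29 (CDKN1A, BTG2, TP53INP1 and SESN1) and 2 with the larger in HCT116 (SFN and TNFRSF10A), and the median difference of the list was -0.07. CDKN1A, the cell cycle inhibitor p21, was at 208, 219.9 and 211 CPM in 2D and 362, 349 and 372 CPM in 3D in HCT116, and at 5.52, 6.81 and 4.82 CPM in 2D and 18.3, 44.8 and 14 CPM in 3D in HT29. Both lines rose without overlap, HT29 by 2.15 ± 0.29 from a far lower level. The difference was lost without library 2 of HCT116 in 2D (adjusted p = 0.05 as rounded) and in a fit of the 12 libraries alone (0.14). The antiproliferative gene BTG2 was at 19.2, 13.6 and 14.9 CPM in 2D and 61.0, 43.0 and 41.6 CPM in 3D in HT29, against 36.9 to 43.3 CPM over the 6 HCT116 libraries. TP53INP1 rose by 3.42 ± 0.40 and SESN1 by 0.69 ± 0.14 in HT29 alone. SFN, which restrains the G2/M transition, rose by 1.17 in HCT116 and by 0.33 in HT29, and the death receptor gene TNFRSF10A fell by 0.56 in HT29 alone.

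The feedback genes of MAPK signaling had 8 of 26 called. Of 4 ERK phosphatase genes tested, 1 was called with the larger change in HCT116 and 1 with the larger in HT29. DUSP4, a nuclear form, was at 100, 80.5 and 82.2 CPM in 2D and 114, 123 and 129 CPM in 3D in HCT116, and at 53.6, 57.2 and 57.4 CPM in 2D and 41.3, 30.9 and 39.7 CPM in 3D in HT29. DUSP6, a cytoplasmic form, was at 56.8, 65.1 and 58.1 CPM in 2D and 40.2, 40.2 and 50.8 CPM in 3D in HCT116, and at 47.6, 41.8 and 48.3 CPM in 2D and 74.0, 92.4 and 62.3 CPM in 3D in HT29. DUSP4 thus rose in HCT116 and fell in HT29 (difference 1.07 ± 0.15), and DUSP6 did the reverse (-1.19 ± 0.21), with no overlap in any of these comparisons. DUSP6 shares 40.5% of its exonic length with a gene on the opposite strand. ETV4 was the other member that fell in HCT116 and rose in HT29, and SPRY2 rose in HT29 alone. CCND1, cyclin D1, was at 118, 126 and 141 CPM in 2D and 56.9, 51.0 and 65.7 CPM in 3D in HT29, and PHLDA1 at 207, 238 and 234 CPM and 95.1, 82.5 and 96.9 CPM. Both fell in HT29 alone, with changes of 0.10 (95% interval -0.17 to 0.36) and 0.17 (-0.09 to 0.43) in HCT116.

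The Wnt and crypt stem list had 7 of 30 called, all past the test in HT29 alone. In HT29 8 of the 30 rose and 8 fell, in HCT116 1 rose and 1 fell, and the median difference was 0.02. DKK1, a secreted Wnt inhibitor, fell in HT29 from 12.7, 32.0 and 21.3 CPM to 3.02, 3.67 and 4.39 CPM, against 285 to 444 CPM over the HCT116 libraries. The Wnt target genes NKD1, SP5 and BMP4 and the stem cell marker gene PROM1 rose in HT29, PROM1 from 7.03, 3.82 and 5.75 CPM to 25.2, 15.4 and 14.1 CPM. FGF19 and ALCAM fell, FGF19 from 42.0, 33.0 and 30.4 CPM to 21.9, 11.2 and 16.3 CPM. NKD1 was low in HT29, at 0.137 to 0.383 CPM in 2D and 0.588 to 1.12 CPM in 3D. Its difference was no longer called with a replicate block (adjusted p = 0.17).

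Absorptive genes rose in 20 of 30 in HT29 and in 6 of 30 in HCT116. Goblet cell genes rose in 18 of 25 and in 6 of 25. Over all genes tested, 21.1% rose in HT29 and 16.8% in HCT116. Only 5 absorptive and 2 goblet cell genes were called in the difference, against 7.76% of all genes. The 5 were 3 without library 1 and the 2 were 4 without library 3 of HCT116 in 3D. The mean level of absorptive genes, log2(CPM + 1), was 0.93 to 1.14 in HCT116 and 3.01 to 3.88 in HT29. That of goblet cell genes was 0.98 to 1.34 and 2.32 to 3.53. Members near the floor in HCT116, such as VIL1 and CDH17, leave a change there undetermined. CDX2 was at 1.68, 0.963 and 1.64 CPM in 2D and 7.72, 5.5 and 6.93 CPM in 3D in HT29, a rise without overlap of 2.25 ± 0.17, and at 17.9 to 24.2 CPM in HCT116, where the change was 0.17 (95% interval -0.08 to 0.43). Besides CDX2 and CA2 among absorptive genes, ATOH1 and FOXA3 among goblet cell genes had the larger change in HT29. CEACAM1, KRT20 and TSPAN1 had the larger change in HCT116, where CEACAM1 went from 0.453, 0.719 and 0.674 CPM to 4.79, 3.99 and 2.31 CPM while HT29 stayed between 315 and 412 CPM. The KRT20 call was lost without library 1 of HCT116 in 3D (adjusted p = 0.066).

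Few cell cycle and ribosomal genes were called. Of 43 S phase genes 34 fell in HCT116 and 22 in HT29, of 54 G2/M genes 35 and 48 fell, and in the difference UBR7 alone and ANLN and NCAPD2 alone were called. These calls were lost without any of 6 libraries in turn for UBR7 (adjusted p of up to 0.11), 9 for ANLN (up to 0.14) and 11 for NCAPD2 (up to 0.24), and with 1 library left out the number called was 0 to 7 for the S phase list and 0 to 3 for the G2/M list. MKI67, a proliferation marker, had a difference of 0.76 (95% interval 0.23 to 1.29) with an adjusted p of 0.072, and of 0.90 (adjusted p = 0.047) without library 1 of HCT116 in 2D. Without the filter on low counts it was called, with a difference of 0.68 (adjusted p = 0.00081). Of 34 ribosomal protein genes 29 rose in HCT116 and 30 in HT29, and none was called in the difference.

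Of the genes of purine signaling, which the study was about, 12 of 22 were tested and 2 were called. NT5E (chr6:85449584-85495791, plus strand), the ectonucleotidase CD73 that makes adenosine, was at 31.9, 28.8 and 35.5 CPM in 2D and 50.8, 52.1 and 65.1 CPM in 3D in HCT116, and at 79.5, 98.8 and 68.4 CPM in 2D and 49.1, 33.2 and 43.0 CPM in 3D in HT29. The directions were opposite with no overlap, HT29 was the higher line in 2D and HCT116 in 3D, and the difference was 1.78 ± 0.22 (adjusted p = 7.2e-06). The adenosine receptor gene ADORA2B had a difference of 0.59 ± 0.15, which was lost without any of 7 libraries in turn, with adjusted p-values of up to 0.1. For the receptors and the channel whose difference was not called, the 95% interval was -0.89 to 0.03 for P2RX4, -1.18 to 0.48 for P2RY1, -0.51 to 0.33 for P2RY2, -0.43 to 0.62 for P2RY11, which shares exons with a neighbor, and -0.37 to 0.48 for PANX1.

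**Figure D4:**
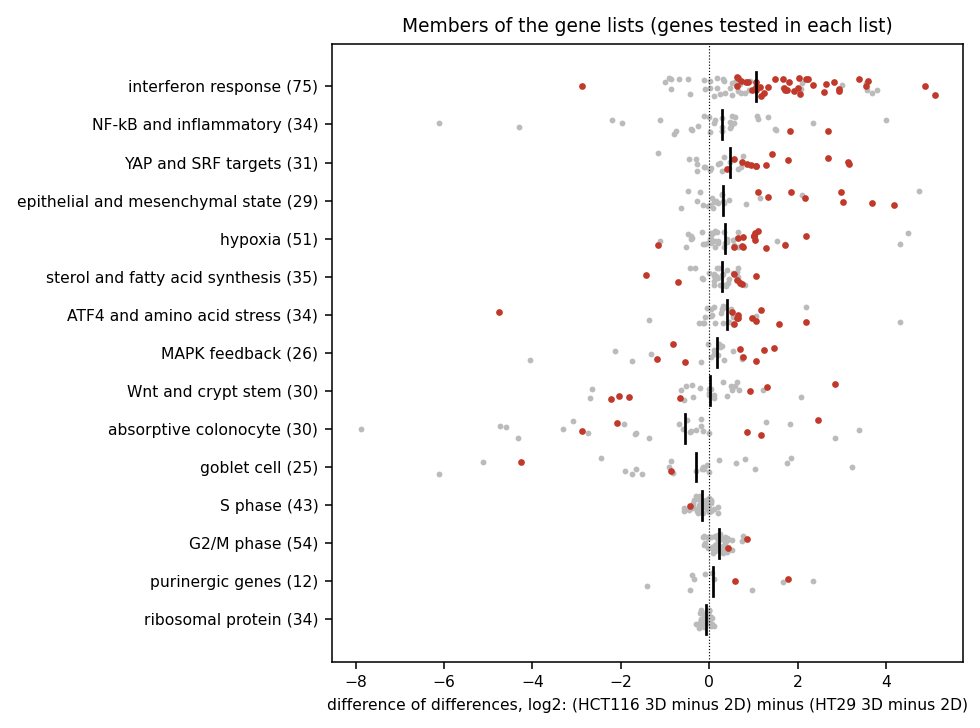
The difference, (HCT116 3D minus 2D) minus (HT29 3D minus 2D), on the log2 scale (horizontal axis) of each gene tested in 15 of the lists (vertical axis, number tested in brackets). Red points were called at an adjusted p under 0.05, grey points were not, and the black line is the median of the list, which was 1.05 for interferon genes, 0.48 for YAP and SRF targets and -0.07 for ribosomal protein genes.

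The libraries of LS513 and LS174T did not enter the contrasts that set the classes, and the same genes were looked up there. They did share the filter, the scaling and the estimate of the spread with the fit. The shares below are thus not independent of the classes and are a description. Over all genes tested, 13.7% rose and 9.9% fell in LS513, and 13.1% rose and 9.15% fell in LS174T. Of the genes that rose in HCT116 and fell in HT29, 42.4% rose and 3.16% fell in LS513, whereas 8.23% rose and 19.6% fell in LS174T. The share that rose was above the share over all genes in LS513, and the share that fell was above it in LS174T. Of the genes that rose in HCT116 alone, 46.3% rose and 2.57% fell in LS513, and 20.6% rose and 4.82% fell in LS174T. Of those that fell in HT29 alone, 16.7% rose and 11.7% fell in LS513, and 1.67% rose and 25.6% fell in LS174T. A share of 27.8% of the genes that rose in HT29 alone rose in each of these lines, and 8.36% fell in LS513 and 1.89% in LS174T. Of the genes that fell in HCT116 alone, 37.3% fell and 3.92% rose in LS513, and 19.6% fell and none rose in LS174T. Of the 40 genes that fell in HCT116 and rose in HT29, 22.5% rose in each line, and 15% fell in LS513 and 5% in LS174T. AHNAK2 follows the pattern of the first class, with responses of 1.24 in LS513 (adjusted p = 0.0004) and -1.47 in LS174T (0.0011), and SAMD9 does too, with 0.87 (0.005) and -0.93 (0.037). FAM13A rose in both, by 2.05 and 1.60, as in HT29. These examples were chosen after their values were seen. Other named genes of the first class were mixed in LS513. The libraries of PLAU, IL18 and DUSP4 rose there without overlap. Those of NT5E fell without overlap, those of AKAP12 overlapped, and MMP7 and LOXL4 had no more than 2 counts in any library.

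**Figure D5:**
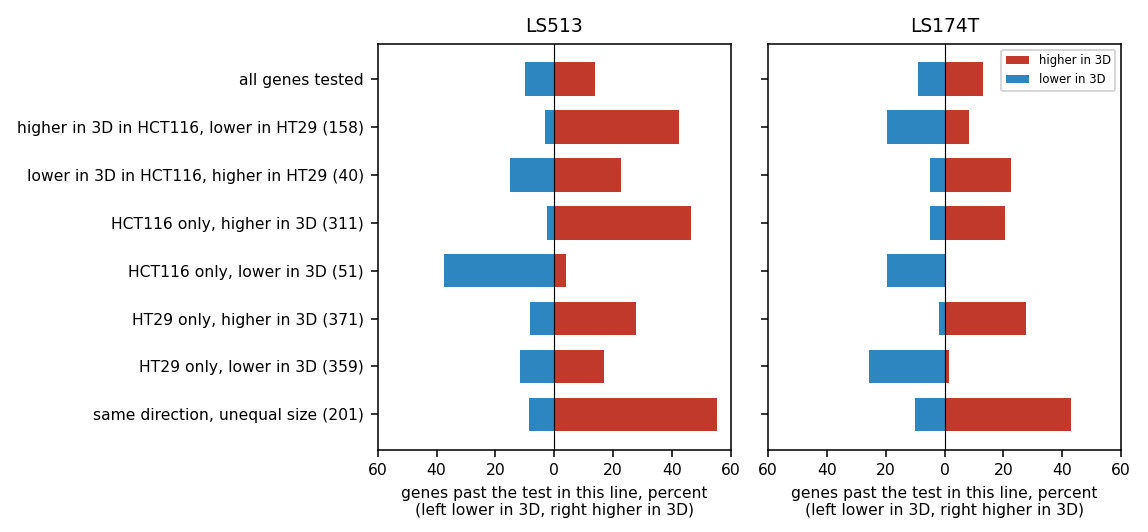
Percent of the genes of each class that were past the test in LS513 (left panel) and LS174T (right panel), with genes higher in 3D to the right and lower to the left of 0, and all 19387 genes tested on top for comparison. Of the genes that rose in HCT116 and fell in HT29, 42.4% were higher in 3D in LS513 and 19.6% lower in LS174T.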

How the data were processed

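Poly(A) RNA of 2D and 3D cultures of 4 CRC lines was sequenced, and the 12 HCT116 and HT29 libraries were contrasted. The authors trimmed the reads with Trim Galore 0.4.1, aligned them with STAR, dropped reads with several alignments and deposited raw counts per gene from HTSeq 0.5.3 without normalization. The submitters' notes name hg19, whereas the study's methods and the gene identifiers fit GRCh38, and positions and exon overlaps are from GENCODE on GRCh38. The libraries are strand specific, and the strand option of the counting is not given in the sources used here. Groups follow the labels. The 8 technical replicates of a library were summed, 7 for library 4 of HT29 in 3D. Counts were fitted in R 4.3.3 with edgeR 4.0.16 (filterByExpr, TMM, robust quasi-likelihood), using 1 coefficient for each of 8 groups over all 24 libraries. Tests were two-sided with Benjamini-Hochberg adjustment over 19387 genes. A class needed an adjusted p under 0.05 in the difference and in each line said to respond. CPM are on the TMM scale, except the marker sums, which are per library total. The SE and 95% intervals come from the fit. The pipeline was tested on simulated data. Replicate numbers were not used for pairing.

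The members and gene lists were chosen with earlier results of these data known. Named by rule were the 6 protein-coding genes with the largest absolute difference in each opposite class and the 4 in each one-line class, with at least 5 CPM in the highest group and no overlap within a responding line, up to 4 called genes of each list with at least 5 CPM, MKI67 and the purinergic genes detected in all groups. Some genes are not reported here. Alternatives were the size factors of DESeq2 1.42.0 and its Wald test, library totals, no filter, the 12 libraries alone, a replicate block, technical replicate d left out, other thresholds and each library left out in turn.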

Additional observations from a re-analysis of the deposited data

Results flagged for a closer look

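The 3D minus 2D change differed between the lines, by the edgeR quasi-likelihood test of the difference at an adjusted p under 0.05, in 1504 genes. The values below are the differences on the log2 scale, HCT116 minus HT29, of the named genes that passed this test.

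Among genes with opposite directions, the differences were ZBED2 5.86, PLAT 5.74, MMP7 4.18, AKAP12 4.06, LOXL4 3.52, AHNAK2 3.49, SAMD9 2.82, IL18 2.68, PLAU 2.98, NT5E 1.78 and DUSP4 1.07 where HCT116 rose. They were CA2 -2.89, OTULINL -1.87, C1orf21 -1.32, DUSP6 -1.19, FAM13A -1.19 and LIPE -1.13 where HT29 rose. The values of SLC16A9 -5.81 and AP000781.2 -4.49 in this class, and those of LPAR1 -5.55 and NGFR -4.80 among genes that rose in HT29 alone, are set by a 2D group at 0 counts, depend on the prior count of the fit and are no bounds.

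Genes that rose in HCT116 alone had differences of BST2 5.10, TM4SF1 4.41, KRT13 4.10, GALNT5 3.8, IFI44 3.59, CEACAM1 2.46, BIRC3 1.84, CHAC1 1.57, SLC2A1 1.29 and MSMO1 1.07. Genes that fell in HCT116 alone had CACNA1D -1.54, MNS1 -1.26, MYB -1.16, MOB3B -1.06, GRK3 -1.06 and UBR7 -0.44. Genes that rose in HT29 alone had NXPH4 -4.92, NEURL1 -4.54, RASD2 -4.33, ATOH1 -4.27, TP53INP1 -2.90, CDX2 -2.08, NKD1 -2.05, PROM1 -1.82, BTG2 -1.68, SESN1 -0.93 and FOXA3 -0.86. Genes that fell in HT29 alone had PHLDB2 6.04, TNC 4.30, ELFN2 4.01, FN1 3.68, AXL 3.17, FLNA 3.15, TGFBI 3.03, DKK1 2.85, MYL9 2.70, PHLDA1 1.47, FGF19 1.30, CCND1 1.24, SLC7A11 1.17, ASNS 1.05, ANLN 0.85 and ADORA2B 0.59.

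Genes that moved the same way in both lines had differences of GBP2 4.88, OAS1 3.56, DDIT4 2.19, BHLHE40 1.71, KRT20 1.18, SREBF2 0.74 and NCAPD2 0.42 with the more positive change in HCT116. With the more positive change in HT29, they had CDKN1A -1.39, P4HA2 -1.17 and SREBF1 -0.71. The 2D level of GBP2 and TM4SF1 in HCT116, and the 3D level of ZBED2 and PLAT in HT29, rest on a few counts.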

How the results depend on the processing

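With library totals in place of TMM, 1017 genes had the larger change in HT29, 78 fell in HCT116 and rose in HT29, 173 fell in HCT116 alone and 656 rose in HT29 alone, and with the DESeq2 Wald test 870 had the larger change in HT29 and 121 fell in HCT116 alone. Using DESeq2 size factors, no filter, the 12 libraries alone or no technical replicate d kept every class within 1.5 times its size, though not the same members. With no filter, 1191 of the 1504 genes were again called. The 72 genes then lower in HCT116 alone held 24 of the 51 of the main fit. The 43 then lower in HCT116 and higher in HT29 held 24 of the 40. At an adjusted p under 0.01 the difference was called in 781 genes (531 larger in HCT116, 250 in HT29), with classes of 74 and 11 opposite genes, 8 lower in HCT116 alone, 207 higher and 188 lower in HT29 alone and 62 in the same direction. An absolute difference of at least 1 left 798 (505 and 293), and a change of at least 0.5 in each line left 87 and 13 opposite genes. With a replicate block, 724 were called (522 and 202), with 97 and 14 opposite, 196 higher and 11 lower in HCT116 alone, 154 higher and 186 lower in HT29 alone and 65 in the same direction. Of the 11 lower in HCT116 alone, 1 was among the 51 of the main fit. The labels do not say whether equal replicate numbers mark shared cultures. Same-numbered libraries correlated in their deviations at -0.198, 0.179 and -0.00789 in HCT116 and 0.128 and -0.0543 in HT29. With 3 libraries per group these values cannot decide whether the libraries are paired. Leaving out 1 library gave 1059 to 1640 called genes, 596 to 895 larger in HCT116, 427 to 745 larger in HT29, 93 to 143 and 24 to 50 opposite, 189 to 339 higher and 22 to 135 lower in HCT116 alone, 305 to 492 higher and 218 to 329 lower in HT29 alone and 112 to 200 in the same direction. These fits tested more genes, and what else moved the counts was not tested. With at least 1 CPM in both lines, chosen after seeing the data, 1276 of the 1504 stayed, 133 and 34 of them opposite. Of 74 named genes called, 54 kept the call in each of 19 alternatives and none changed sign. Genes near the floor of 3 counts limit what the depth can show.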
